A study of Mus musculus with 40 samples.

Results

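Of the 47548 regions marked by acetylation of histone H3 at lysine 27 (H3K27ac) in at least 1 of 8 mouse brown adipose tissue libraries, 2253 regions (4.74%) were distal and also carried monomethylation of lysine 4 (H3K4me1). They were selected on the peak lists themselves. H3K27ac peaks of the 8 lists were merged where they overlapped by 1 bp or more. A merged region was kept if it had a peak in 5 or more lists, lay more than 2500 bp from every annotated GRCm38 start site, overlapped no peak of H3K4 trimethylation (H3K4me3, the mark of active start sites) in any list, and overlapped an H3K4me1 peak in 2 or more lists. The 2253 regions made up 14.0% of the 16042 H3K27ac regions found in 5 or more lists, and 58.9% of the 3823 of those that were distal and free of H3K4me3. Of the other distal regions, 938 had no H3K4me1 peak in any list and served for comparison, and 632 had H3K4me1 in 1 list. A further 9889 recurrent regions lay within 2500 bp of a start site. Leaving out 1 mouse kept the limits of 5 and 2 lists, so a region had fewer lists in which to reach them. The number of selected regions depended on the mice used. It was 1464 without mouse 2, 1474 without mouse 4, 1311 without mouse 5 and 1468 without mouse 8, and it stayed between 1730 and 2251 when mouse 1, 7, 10 or 11 was left out. It was 416 when only peaks with a −log10 q of at least 5 were used.

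Enhancers are stretches of DNA that raise the transcription of genes on the same chromosome, often over many kilobases and from within introns. H3K4me1 without H3K4me3 is the usual mark of enhancer chromatin, and added H3K27ac marks enhancers that are in use. In brown adipocytes, such elements are bound by PPARγ with its partner RXR, by C/EBP proteins, EBF2 and NFI factors, and they control genes of fat storage, fat burning and heat production, among them Ucp1, which uncouples respiration from ATP synthesis.

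The tissue was brown fat (iBAT) of wild type C57BL/6N mice aged 20 weeks, 2 mice for each of 4 conditions. Mice 1 and 2 were kept warm on a normal chow diet (NCD), mice 4 and 5 were kept at 4 °C for 24 h on NCD, mice 7 and 8 were kept warm and had been moved at 8 weeks of age to a high-fat diet (HFD), which lasted 12 weeks, and mice 10 and 11 received both HFD and cold. All mice were on chow until the diets parted. Brown fat was dissociated as a whole, so the lists describe a mixture of cells, and fewer cells of a type and less of a mark per cell cannot be told apart.

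The H3K27ac lists held 3224 to 40604 peaks. Those of mouse 7 (3224 peaks), mouse 10 (14511) and mouse 1 (16889) stood apart from the other 5, which held over 28000. The H3K4me1 lists of these 3 mice were shorter still, with 12, 18 and 592 peaks, against 7774 to 27568 in the other 5 mice. With the rule applied to the other 5 mice alone, a peak in all 5 being required, 2060 regions were found, and the main results are also given for that setting, which was added after the data were seen, or for the 5 mice at the 2253 regions. An H3K27ac peak within 1000 bp of a start site in 5 or more lists was found for 9 of 10 brown adipocyte markers, Ucp1 among them, and for 10 of 10 endothelial markers. It was found for 1 of 10 macrophage markers, 1 of 10 skeletal muscle markers, and 0 of 8 neuronal and 0 of 8 liver markers.

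The DNA under the H3K27ac summit is shown for the region nearest to Ucp1, the defining gene of the tissue, picked after its values were seen. For each of 4 factor families, it is also shown for the highest ranked eligible region that held the motif. Eligible regions lay near a listed thermogenic gene or adipocyte transcription factor. Those on the chromosome of Ppargc1b were left out of this choice. The rank is the median percentile of fold enrichment within a list. It was 54.0 for the Elovl3 region, 16.0 for Ebf2, 33.0 for Ebf3 and 92.6 for Ppargc1a, so the chosen regions were not all strong. Each window is 300 bases of the GRCm38 plus strand around the summit of the most significant peak, and capitals mark the motif. In the region near Elovl3, a fatty acid elongase of cold-exposed brown fat, the capitals are a PPAR/RXR element with 2 mismatches. In Ebf2 they are a C/EBP element with 1 mismatch, in Ebf3 an exact EBF element, and in a region whose nearest protein-coding gene is Ppargc1a, 511232 bp away, an exact AP-1 element. The window near Ucp1 is chr8:83278156-83278455, and none of the 7 motifs searched was in it. The others are chr19:46109939-46110238 (Elovl3), chr14:67372689-67372988 (Ebf2), chr7:137219241-137219540 (Ebf3) and chr5:51041377-51041676 (Ppargc1a).
Ucp1: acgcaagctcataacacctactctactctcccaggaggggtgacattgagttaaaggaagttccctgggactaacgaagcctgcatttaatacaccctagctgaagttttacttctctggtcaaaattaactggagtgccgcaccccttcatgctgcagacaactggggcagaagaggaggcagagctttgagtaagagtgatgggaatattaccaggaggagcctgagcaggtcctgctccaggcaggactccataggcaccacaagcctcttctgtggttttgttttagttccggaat
Elovl3: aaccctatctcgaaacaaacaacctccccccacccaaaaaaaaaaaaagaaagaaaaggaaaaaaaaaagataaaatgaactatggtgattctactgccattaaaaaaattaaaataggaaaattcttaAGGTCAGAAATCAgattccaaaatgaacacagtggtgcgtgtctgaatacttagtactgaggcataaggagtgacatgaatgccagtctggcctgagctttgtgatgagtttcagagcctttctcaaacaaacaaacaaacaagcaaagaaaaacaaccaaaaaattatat
Ebf2: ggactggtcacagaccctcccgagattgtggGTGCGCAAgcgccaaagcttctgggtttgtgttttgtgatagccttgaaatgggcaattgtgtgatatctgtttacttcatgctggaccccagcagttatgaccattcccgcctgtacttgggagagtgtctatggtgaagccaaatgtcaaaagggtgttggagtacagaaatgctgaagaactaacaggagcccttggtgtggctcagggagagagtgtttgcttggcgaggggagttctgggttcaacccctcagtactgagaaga
Ebf3: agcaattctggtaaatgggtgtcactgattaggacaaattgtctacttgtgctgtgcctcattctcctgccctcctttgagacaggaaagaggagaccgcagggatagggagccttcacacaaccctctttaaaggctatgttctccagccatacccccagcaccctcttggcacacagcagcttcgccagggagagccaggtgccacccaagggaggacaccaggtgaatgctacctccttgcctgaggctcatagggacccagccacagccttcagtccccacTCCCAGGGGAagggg
Ppargc1a: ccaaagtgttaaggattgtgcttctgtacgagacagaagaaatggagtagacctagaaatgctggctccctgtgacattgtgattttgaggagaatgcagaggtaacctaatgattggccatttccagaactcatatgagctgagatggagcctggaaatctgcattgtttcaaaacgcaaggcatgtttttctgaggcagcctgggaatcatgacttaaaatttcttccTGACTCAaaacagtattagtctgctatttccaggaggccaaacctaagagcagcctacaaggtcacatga

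The regions were mostly intronic and lay at moderate distances from genes. Of the 2253 regions, 1369 (60.8%) had their summit in an intron of a protein-coding gene, 681 (30.2%) were intergenic, 125 (5.55%) were in an intron of another gene and 78 (3.46%) were in an exon. Among the 938 distal regions without H3K4me1, 40.2% were in introns of protein-coding genes and 49.7% were intergenic. The nearest start site of any kind was at a median of 11757 bp, and the nearest protein-coding start at 18699 bp, against 25826 bp for the regions without H3K4me1. The nearest protein-coding start was within 10 kb for 684 regions (30.4%), between 10 and 50 kb for 1008 (44.7%), between 50 and 100 kb for 309 (13.7%), between 100 and 500 kb for 243 (10.8%) and farther for 9 (0.399%). At the limit of the rule, the region just outside 2500 bp lay 2509 bp from the start of Rasd1, and a region with H3K4me1 in 2 lists that lay 2498 bp from the start of Chst12 was left out.

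A neighbouring region of the same kind was within 10 kb of 643 regions (28.5%), against 16.0% for the distal regions without H3K4me1, of which there were fewer, and no share expected from their number was computed. The median gap to the next such region was 41412 bp, against 319483 bp. The 2253 regions had 1400 nearest protein-coding genes, of which 970 were nearest to 1 region and 54 to 5 or more. They lay on 19 autosomes and the X chromosome, with 155 each on chromosomes 2 and 11 and 4 on the X. Regions were 351 to 14738 bp wide with a median of 1909 bp, against a median of 1315 bp without H3K4me1. The median deviation of a list's summit from the region's median summit was 54 bp, against 46.2 bp in the distal regions without H3K4me1 and 34 bp at start sites. The summits of a region spanned a median of 558 bp over its lists, against 326 and 324 bp.

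How many of the regions were found in a mouse went broadly with the length of that mouse's list. An H3K27ac peak was present at 1216 and 2170 regions (54.0% and 96.3%) in the warm NCD mice 1 and 2, at 2226 regions (98.8%) in each of the cold NCD mice 4 and 5, at 328 and 2191 (14.6% and 97.2%) in the warm HFD mice 7 and 8, and at 1348 and 2237 (59.8% and 99.3%) in the cold HFD mice 10 and 11. The 5 mice with long lists were all above 96%, whatever their temperature and diet, and the 3 with short lists were all below 60%. Of the 4082 absences over all regions and lists, 94.7% were in mice 1, 7 and 10. A peak was found in all 8 lists at 305 regions (13.5%), in 7 at 546, in 6 at 670 and in 5 at 732. The most common pattern was a peak in every list except those of mice 1, 7 and 10, at 546 regions (24.2%), followed by absence in mouse 7 alone, at 529 (23.5%). In the 5 long lists taken alone, 2042 regions (90.6%) had a peak in all 5, 207 in 4 and 4 in 3. These counts describe what the rule selected and were not tested.

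**Figure D1:**
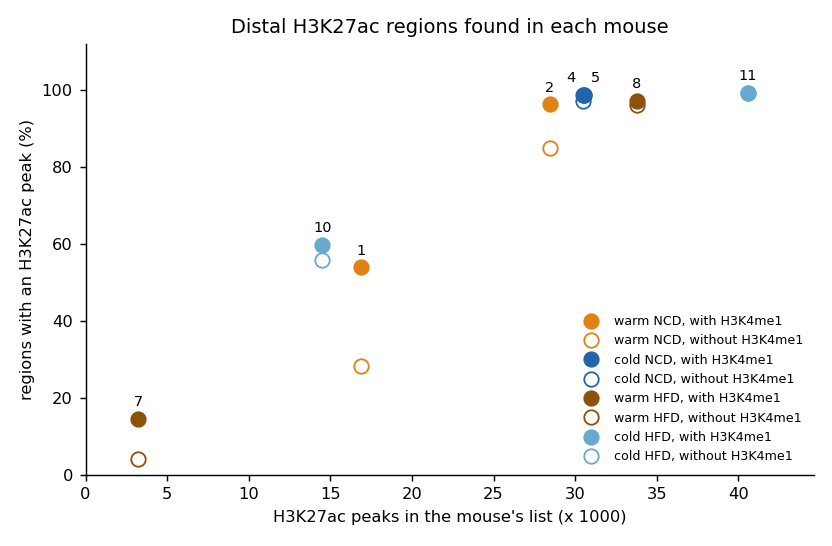
Share of distal H3K27ac regions with a peak in each mouse (y axis, %) against the number of H3K27ac peaks in that mouse's list (x axis, in units of 1000 peaks). Filled points are the 2253 regions with H3K4me1 and open points the 938 without. Numbers name the mice and colours give the condition. Mice 2, 4, 5, 8 and 11 sit above 96% for the regions with H3K4me1, and mouse 7, with 3224 peaks, sits at 14.6%.

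Presence by temperature and diet was read against this. The share of regions with a peak was 89.2% ± 19.6 in the cold and 65.5% ± 39.5 in the warm mice (SD, n = 4 each), and 87.0% ± 22.0 on NCD and 67.7% ± 39.8 on HFD (SD, n = 4 each). Warm mice ranged from 14.6% to 97.2% and cold mice from 59.8% to 99.3%, so the groups overlapped. The distal regions without H3K4me1 had shares of 87.8% in the cold and 53.3% in the warm mice, and of 77.3% on NCD and 63.8% on HFD. At start sites the shares were 85.4% and 73.4% by temperature, and 92.4% and 66.4% by diet. Higher means in cold and on NCD were thus not particular to the regions with H3K4me1. A peak in all 4 cold mice and at most 1 warm mouse was found at 91 regions (4.04%), where 3.51% of all recurrent H3K27ac regions met the same rule. All 91 lacked a peak in mouse 7, and 90 lacked it in both mouse 1 and mouse 7. The reverse pattern, all 4 warm mice and at most 1 cold mouse, was found at 0 regions, where the background was 0.00623%. A peak in all 4 NCD mice and at most 1 HFD mouse was found at 49 regions (2.17%, background 1.9%), all of which lacked mice 7 and 10. The opposite, all 4 HFD mice and at most 1 NCD mouse, was found at 2 regions (0.0888%, background 0.0312%). In the distal regions without H3K4me1, 152 of 938 (16.2%) had a peak in all 4 cold and at most 1 warm mouse, and at start sites 1.84% had. With a difference of 2 or more mice as the rule, the shares were 20.4% for cold (background 12.6%) and 15.4% for NCD (background 20.6%). Among the 5 mice with long lists, 1 region (0.0444%, background 0.0748%) had a peak in all 3 cold and neither of the warm mice, and 0 had one in all 3 NCD mice and neither HFD mouse (background 0.0312%).

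When each list was cut to its 14000 most significant peaks, which leaves out mouse 7, the regions with a peak made up 42.3% and 59.4% in the warm NCD mice 1 and 2, 71.6% and 62.0% in the cold NCD mice 4 and 5, 59.1% in the warm HFD mouse 8, and 58.3% and 62.0% in the cold HFD mice 10 and 11. Mouse 10, at 59.8% of the regions with its whole list, was then level with mice 2 and 8, and mouse 1 remained lowest. Among the 3000 most significant peaks of each list, the share was 4.97% and 7.55% in mice 1 and 2, 15.0% and 8.34% in mice 4 and 5, 13.9% and 11.6% in mice 7 and 8, and 12.1% and 12.6% in mice 10 and 11. Mouse 7 was then exceeded by mouse 4 alone, as in the distal regions without H3K4me1 (3.94% and 5.33%). At start sites mouse 7 was lowest, at 11.9%.

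The regions with the highest median percentile that met these rules were named. A fold percentile is the rank of a peak's fold enrichment over local background within its own list. For cold they were regions nearest to Rapgef5 (chr12:117494341-117495567), Gadd45g (chr13:52187961-52188726) and Hoxc4 (chr15:103087555-103092101). The region near Rapgef5, which encodes an exchange factor for Rap GTPases, had fold percentiles of 78.0, 49.6, 86.1 and 94.3 in the cold mice 4, 5, 10 and 11, and of 94.5 in the warm mouse 8. The warm mouse 8 was thus the highest of all. The region near Gadd45g, a stress-induced growth arrest gene 341217 bp away, stood at 82.1, 31.9, 83.9 and 82.6 in the cold mice and at 9.29 in the warm mouse 2. For NCD the named regions were nearest to Wscd2 (chr5:113552544-113554633), Bcl6 (chr16:24120144-24122325) and Ccdc80 (chr16:45037074-45039512), and for HFD a region in an intron of Zfp652 (chr11:95781493-95786061) is given. The Zfp652 region stood at 35.4 and 80.8 in the warm HFD mice 7 and 8, at 98.0 and 99.2 in the cold HFD mice 10 and 11 and at 70.6 in the cold NCD mouse 4.

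H3K27ac peaks at the regions with H3K4me1 were wider and ranked higher within their list than those at distal regions without it, in every mouse. For each region the most significant peak of a list was used. Median peak widths at the regions with H3K4me1 were 424, 1108, 974, 936, 368, 805, 475 and 1151 bp in mice 1, 2, 4, 5, 7, 8, 10 and 11. At the distal regions without H3K4me1 they were 318, 565, 757, 502, 277, 554, 362 and 854 bp in the same order. The ratio of the medians was 1.29 in mouse 4 at the lowest and 1.96 in mouse 2 at the highest. The log2 difference was 0.55 ± 0.24 (SD, n = 8 mice), higher in 8 of 8 mice (two-sided exact sign-flip permutation test within mice, p = 0.00781, adjusted p = 0.00781 over 2 measures, the smallest the design allows). In the 5 mice with long lists it was 0.64 ± 0.28 (SD, n = 5), higher in 5 of 5. The smallest exact p for 5 mice is 0.0625, which is what was reached.

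Median fold percentiles at the regions with H3K4me1 were 42.0, 58.9, 75.3, 64.0, 57.4, 69.3, 55.8 and 71.9 in mice 1, 2, 4, 5, 7, 8, 10 and 11. Without H3K4me1 they were 27.6, 43.0, 72.3, 44.8, 44.9, 62.3, 39.9 and 68.7. The difference was smallest in mouse 4 (3.05 points) and mouse 11 (3.22 points) and largest in mouse 5 (19.2 points). Its mean was 11.4 ± 6.18 percentile points (SD, n = 8), higher in 8 of 8 mice (exact sign-flip permutation test, p = 0.00781, adjusted p = 0.00781). In the 5 long lists the mean difference was 9.65 ± 7.43 points (SD, n = 5), higher in 5 of 5 (exact p = 0.0625). The 8 mice share the same regions, and these p-values cover the spread between mice only. The regions also differed in the number of lists. A peak in all 8 lists was found at 305 regions with H3K4me1 (13.5%) and at 31 without it (3.30%). Among these alone, the log2 width difference was 0.60 and the percentile difference 5.46 points. With the mean over all peaks of a region in place of the most significant peak, they were 0.50 and 6.52 points. A wider region has more room to meet an H3K4me1 peak. When H3K4me1 was counted only in the 300 bp around the H3K27ac summit, a setting added after the data were seen, the log2 width difference was 0.33 (exact sign-flip permutation test, adjusted p = 0.0156) and the percentile difference 6.70 points (adjusted p = 0.0312, exact). Taking the 8 and 8 medians as unpaired instead gave adjusted p = 0.11 for both in an exact permutation test.

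**Figure D2:**
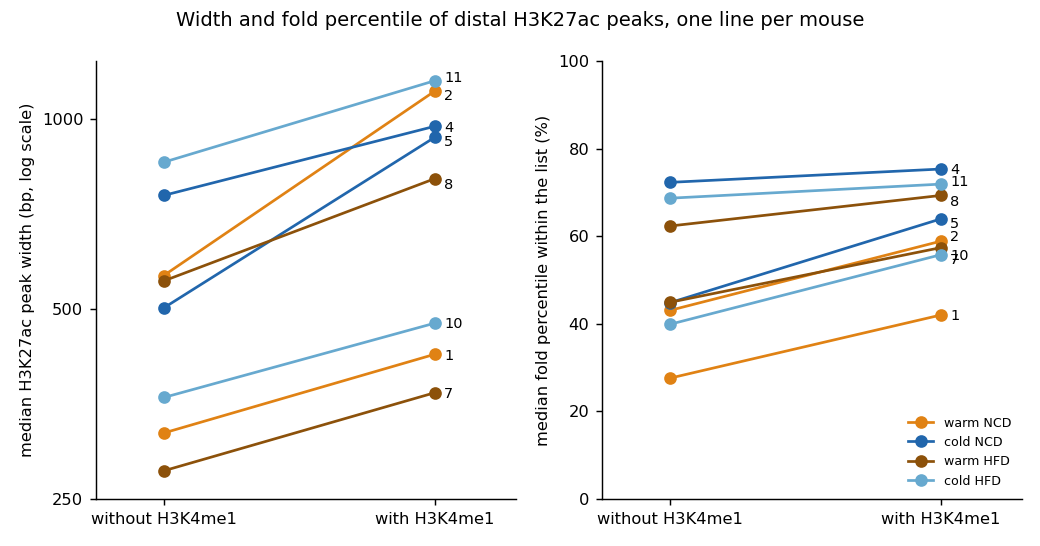
Median width of H3K27ac peaks in bp on a log axis (left) and median fold percentile within the list (right) at distal regions without and with H3K4me1. Each line is 1 mouse, numbered and coloured by condition. All 8 lines rise in both panels, by a log2 width difference of 0.55 ± 0.24 and by 11.4 ± 6.18 percentile points (SD, n = 8).

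These within-mouse differences were then compared between conditions. For width, the difference averaged 0.52 in cold and 0.58 in warm mice (difference −0.06, exact permutation test of 4 against 4 mice, p = 0.514, adjusted p = 0.686 over 4 tests). It averaged 0.44 on HFD and 0.66 on NCD (difference −0.22, exact p = 0.371, adjusted p = 0.686). For the percentile it averaged 10.3 points in cold and 12.4 in warm mice (exact p = 0.714, adjusted p = 0.714), and 9.66 on HFD and 13.1 on NCD (exact p = 0.514, adjusted p = 0.686). The smallest p of this exact permutation test is 0.0286. Reached in only 1 of the 4 tests, it gives an adjusted p of 0.114, so a single difference could not pass. The interaction of temperature and diet gave exact permutation p = 1 for width and p = 0.743 for the percentile (adjusted p = 1 for both). With the rule applied to the 5 long lists alone, the width difference averaged 0.62 in the 3 cold and 0.72 in the 2 warm mice (exact permutation p = 0.6), and 0.50 in the 2 HFD and 0.78 in the 3 NCD mice (exact p = 0.2). The percentile difference averaged 9.12 and 9.38 points in cold and warm (exact p = 1) and 4.04 and 12.7 points on HFD and NCD (exact p = 0.2). These p-values cannot reach the threshold with 5 mice. No difference between conditions passed the test at 4 mice a group, which does not show that the conditions were alike.

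H3K4me1, which the rule also used, was found at 78 and 1795 of the regions in the warm NCD mice 1 and 2, at 1628 and 2026 in the cold NCD mice 4 and 5, at 0 and 1382 in the warm HFD mice 7 and 8, and at 0 and 752 in the cold HFD mice 10 and 11. The counts again went broadly with list length, with mice 4 and 8 in the opposite order, and mouse 5, with 27568 H3K4me1 peaks, was highest. H3K4me1 was present in 2 lists at 582 regions, in 3 at 649, in 4 at 603, in 5 at 376 and in 6 at 43. In the 5 mice with long H3K27ac lists, 11.1% to 15.0% of all H3K4me1 peaks of a mouse lay at the 2253 regions.

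In the 5 mice with long lists, the summit of the H3K4me1 peak was at a median of 334, 347, 329, 475 and 513 bp (mice 2, 4, 5, 8 and 11) from the H3K27ac summit of the same region and mouse. Bins of 100 bp were fullest from 0 to 100 bp in each of these mice, and between 23.4% and 34.9% of summit pairs were within 150 bp of each other. H3K4me1 peaks at the regions were narrower than the H3K27ac peaks, with medians of 314 to 488 bp in these mice, against 907 to 1334 bp. The most significant peak of a region was taken. Over all H3K4me1 peaks of these lists the medians were 291 to 375 bp, in each mouse below that at the regions. More than 1 H3K4me1 peak was called in 19.3% (mouse 11) to 40.3% (mouse 5) of the regions with both marks. H3K4me1 summits on both sides of the H3K27ac summit were found in 22.9%, 22.2%, 28.1%, 17.7% and 11.9% of such regions in mice 2, 4, 5, 8 and 11. Mouse 11 had the shortest H3K4me1 list of the 5 and the lowest share.

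**Figure D3:**
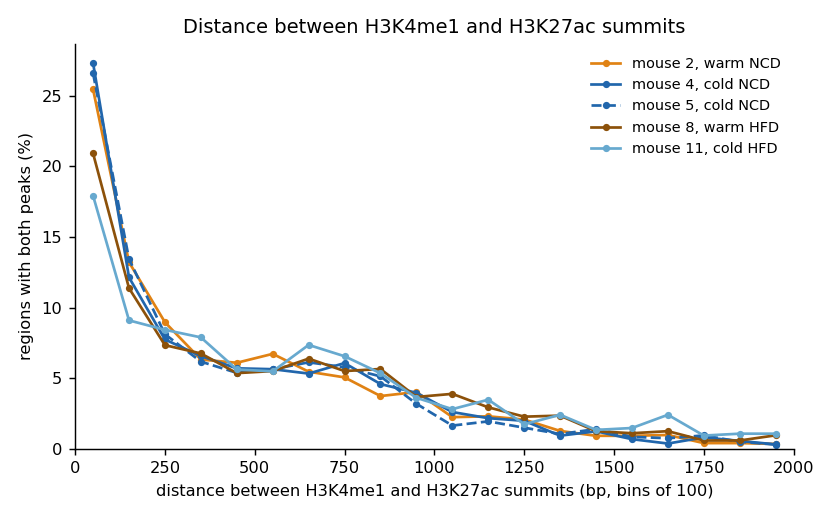
Distance between the summits of the H3K4me1 and the H3K27ac peak of the same region and mouse (x axis, bp, in bins of 100) and the share of regions with both peaks in each bin (y axis, %). Lines are the 5 mice with long H3K27ac lists. Every line is highest in the first bin and has a long tail, with medians of 329 to 513 bp.

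H3K27me3, the mark of Polycomb repression, was not detected at the regions in any list. It overlapped 0 of 2253 regions in 8 lists. Among the distal regions without H3K4me1 it overlapped 1, and among the recurrent regions at start sites 41 of 9889 (0.415%). The H3K27me3 lists held 20 to 6428 peaks each, so most of them could show little.

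The regions that ranked highest lay near genes of varied function. Among the 305 regions with a peak in all 8 lists, the 10 with the highest median fold percentile were nearest to Ppargc1b, Acer2, Lrrn4, Ccdc192, Ndufb3, Dusp10, Prkar2b, Notch4, Clic5 and Mrtfb. Their median percentiles ran from 97.6 to 99.0. The first was chr18:61444611-61450093, an intergenic region 44180 bp from the start of Ppargc1b, a coactivator that drives mitochondrial gene expression. Its fold percentiles were 98.1, 96.8, 99.7, 99.1, 99.4, 96.3, 99.7 and 99.0 in mice 1, 2, 4, 5, 7, 8, 10 and 11. It was above 96 in every mouse, including those with short lists. The region in an intron of Acer2, a ceramidase gene (chr4:86895792-86900608), stood at 97.7, 95.0, 99.8, 70.7, 98.7, 99.9, 99.3 and 99.7, with mouse 5 apart from the rest. The region nearest to Ndufb3, a subunit of respiratory complex I (chr1:58602192-58616929), was the widest of all at 14738 bp, followed by regions in Fabp12 (14186 bp) and Abca1 (13268 bp). The region nearest to Prkar2b, the regulatory subunit of protein kinase A that is abundant in fat (chr12:32102253-32111945), stood between 74.4 in mouse 5 and 99.8 in mouse 4. These ranks describe the selection and were not tested.

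The gene lists of adipocyte biology were met more often than genes at large. A region lay within 100 kb of a start site of 3803 of 21911 protein-coding genes (17.4%). For the genes of 9 lists of adipocyte function together the count was 65 of 130 (50.0%). Within 50 kb it was 55 (42.3%, against 10.2% of all protein-coding genes) and within 200 kb 77 (59.2%, against 29.2%). The lists were chosen with earlier results of these data known, and genes differ in size and in the number of start sites, so the counts are a description. By list, regions were near 10 of 14 genes of the lipid droplet and lipolysis, 9 of 14 of insulin signalling and glucose uptake, 8 of 14 of fatty acid uptake and binding, 9 of 17 thermogenic genes, 5 of 10 adipokines, 10 of 22 adipocyte transcription factors, 6 of 14 of lipogenesis, 5 of 14 of adrenergic and cAMP signalling and 4 of 14 of fatty acid oxidation. Distal regions without H3K4me1 were near 5 of 17 thermogenic, 5 of 22 transcription factor and 4 of 14 fatty acid uptake genes. They were near 3 of 14 genes each of the insulin, adrenergic and oxidation lists. For lipid droplet, adipokine and lipogenesis genes it was 2 of 14, 1 of 10 and 1 of 14. Apart from lipogenesis (7.14%), these shares too were above that of all protein-coding genes (8.31%). Regions with H3K4me1 were near 2 of 10 macrophage, 1 of 10 skeletal muscle, 2 of 8 neuronal and 2 of 8 liver markers. Of the 10 endothelial markers 0 had such a region within 100 kb, although all 10 had H3K27ac at a start site, and 5 of the 10 had a distal region without H3K4me1 within 100 kb, where 1820 of 21911 protein-coding genes (8.31%) had one. With the 5 long lists alone, 64 of the 130 genes (49.2%, against 16.2% of all protein-coding genes) had a region with H3K4me1 within 100 kb, and of the 10 endothelial markers 0 had one with and 2 had one without H3K4me1.

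**Figure D4:**
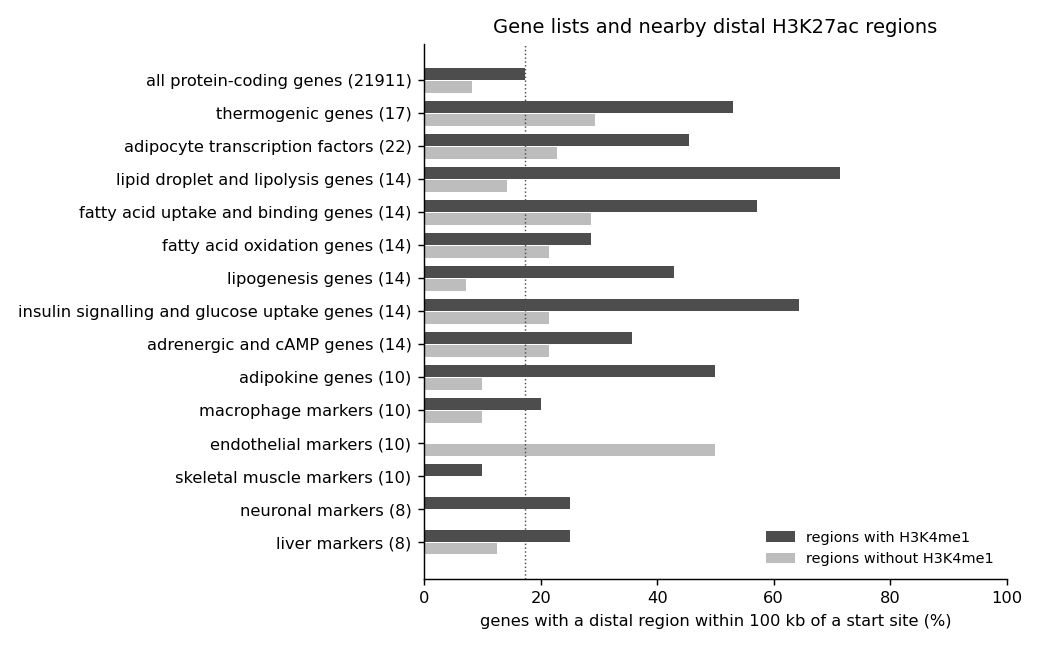
Share of the genes of each list (number of genes in brackets) with a distal H3K27ac region within 100 kb of a start site (x axis, %). Dark bars are the 2253 regions with H3K4me1, pale bars the 938 without, and the dotted line, which belongs to the dark bars, marks the 17.4% of all protein-coding genes (8.31% for the pale bars). The lipid droplet list is highest at 10 of 14 genes, and the endothelial markers have 0 dark and 5 of 10 pale.

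Thermogenic genes were the nearest protein-coding genes of 17 regions at 10 genes. The region nearest to Ucp1, chr8:83276299-83281294, lay 9058 bp from its start, between genes, and its summit window is printed above. It had a peak in all 8 lists, with fold percentiles of 61.3 and 86.2 in the warm NCD mice 1 and 2, 98.2 and 76.7 in the cold NCD mice 4 and 5, 51.7 and 89.8 in the warm HFD mice 7 and 8, and 92.0 and 98.9 in the cold HFD mice 10 and 11. Warm mice spanned 51.7 to 89.8 and cold mice 76.7 to 98.9, so the temperatures overlapped. Its H3K4me1 peak was found in the NCD mice 2, 4 and 5.

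Ppargc1b had 3 regions, at 20565, 20716 and 44180 bp from a start, of which 2 had a peak in all 8 lists. The second of these, chr18:61421147-61426313, stood at 86.6, 90.8, 99.5, 97.7, 49.8, 98.2, 87.4 and 99.8 in mice 1, 2, 4, 5, 7, 8, 10 and 11, with only mouse 7 below 86. Ppargc1a, the related coactivator of brown fat thermogenesis, was the nearest protein-coding gene of 2 regions, but from 276606 and 511232 bp. The farther one had a peak in all 8 lists and percentiles from 70.5 to 98.1. Prdm16, a determinant of brown fat identity, held 3 intronic regions at 6860, 50783 and 84190 bp, and these had a peak in 5, 6 and 6 lists. Atp2a2, the calcium pump of the endoplasmic reticulum, and Adcy3, an adenylyl cyclase, had 2 regions each. Elovl3, Kcnk3, a potassium channel gene, Otop1, a proton channel gene, and Ckmt2, a mitochondrial creatine kinase, had 1 each. None of the regions of Prdm16, Atp2a2, Adcy3, Elovl3, Kcnk3, Otop1 and Ckmt2 had a peak in mouse 7. The thermogenic genes Cidea, Dio2, Cox7a1, Cox8b, Adrb3, Bmp8b and Slc25a20 had no such region within 100 kb, and neither had Ppargc1a.

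**Figure D5:**
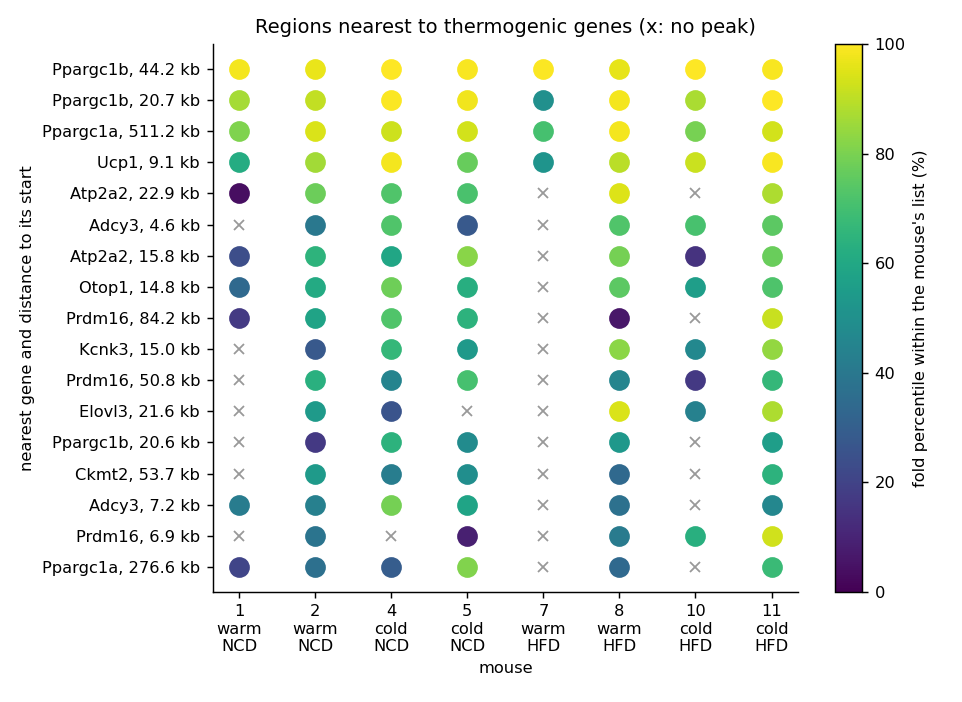
Fold percentile of the H3K27ac peak within each mouse's list (colour, %) for the 17 regions nearest to a thermogenic gene (rows, with the distance to the gene's start in kb) in the 8 mice (columns, with temperature and diet). A cross marks a list without a peak. The top 4 rows, near Ppargc1b, Ppargc1a and Ucp1, have a peak in every mouse, and the other 13 have none in mouse 7.

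Among adipocyte transcription factors, members of the EBF and NFI families and Pparg had 2 or more regions each. Ebf1 was nearest to 8 regions, 7 of them inside the gene, Ebf2 to 4, Ebf3 to 2, Nfia to 6 and Nfib to 6. Within 100 kb of a start there were 6, 2, 1, 7 and 3 regions in the same order, and 7 for Pparg. EBF2 selects the brown lineage together with PPARγ, and NFIA acts with both. The strongest Ebf1 region, chr11:45198842-45205737, lay 286704 bp from its start in an intron of another gene, with percentiles of 93.5, 97.9, 99.5, 89.9, 91.6, 95.7, 93.4 and 97.3 in mice 1, 2, 4, 5, 7, 8, 10 and 11. It varied by less than 10 points over the 8 mice. The strongest Ebf2 region, chr14:67414348-67418907, was intronic and had a peak in 7 lists, all but that of mouse 7, with percentiles from 65.5 in mouse 8 to 98.6 in mouse 11. Pparg, the master regulator of adipocyte differentiation, held 5 intronic regions 3095 to 43657 bp from a start. The highest ranked, chr6:115467519-115472668, stood at 29.4, 79.2, 50.9, 90.7, 65.4 and 77.6 in mice 2, 4, 5, 8, 10 and 11, with no peak in mice 1 and 7. Cebpa had 1 region 26490 bp away in 7 lists, and Ppara and Tle3 had 1 each. Cebpb and Irf4 were nearest to 0 regions, but 4 and 1 regions lay within 100 kb of their starts. Cebpd, Rxra, Klf15, Klf11, Zfp516, Esrra, Esrrg, Srebf1, Nr1h3, Thra and Zfp423 had none within 100 kb, and Tle3's lay at 185942 bp.

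Genes of lipid storage and synthesis also had several regions. Mgll, the monoglyceride lipase that completes lipolysis, was nearest to 5, and the region with the highest rank in the list was at Dgat2, which makes triglycerides, 3804 bp from its start, with a peak in 7 lists and a median percentile of 92.3. Elovl6, a fatty acid elongase, held 4 intronic regions, of which chr3:129578615-129585951 had a peak in all 8 lists and percentiles from 81.9 to 99.7. Lpin1, a phosphatidate phosphatase, had 3 regions from 2774 bp. Acsl1, which activates fatty acids for oxidation, had 3 intergenic regions within 64537 bp, 2 of them in all 8 lists with median percentiles of 93.9 and 93.5. Lpl, the lipase that frees fatty acids from lipoproteins, had 3, and Cd36, the fatty acid translocase, had 1 intronic region with a median of 70.6.

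In the insulin list, Foxo1, a transcription factor restrained by insulin signalling, was nearest to 6 regions, 4 of them 239522 to 348202 bp away. Hk2, a hexokinase, held 4 intronic regions, and the insulin receptor gene Insr and Tbc1d4, a regulator of glucose transporter traffic, held 2 each. Among adrenergic and cAMP genes, Adrb1 had 2 regions in 7 lists, at median percentiles of 70.3 and 60.7, and Pde4d, a cAMP phosphodiesterase, had 2 in 7 lists, at 87.5 and 76.4. Vegfa, the angiogenic factor, had 2 regions in all 8 lists with medians of 96.5 and 90.6, and Nrg4, a growth factor secreted by brown fat, had 2 intronic regions, at 85.1 and 68.0. Acaa2 and Pdk4 were the 2 genes of the oxidation list that were nearest to a region, with medians of 92.6 and 84.5.

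The genes nearest to the most regions were Bcl6 and Tomm20, with 13 each. Bcl6 encodes a transcriptional repressor, and its regions were spread over 221 kb (chr16:23962626-24184027), none inside the gene and none with a peak in all 8 lists. Tomm20 encodes a subunit of the mitochondrial import pore. Its regions covered 159 kb (chr8:126773602-126933076) outside the gene, 3 with a peak in all 8 lists. Nrp1, a coreceptor for VEGF and semaphorins, Tgfbr2, a TGF-β receptor, and Zfp36l1, an mRNA decay factor, had 9 each. All 9 regions of Nrp1 lay inside it, over 121 kb (chr8:128371152-128491807). A nearest gene is a position and not a target.

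The printed windows belong to a search of 300 bp around every summit, on both strands, for 7 motifs. These were AGGTCANAGGTCA with up to 2 mismatches for PPAR/RXR, TTGCGCAA with up to 1 mismatch for C/EBP, TCCCNNGGGA for EBF, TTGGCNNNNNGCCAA with up to 1 mismatch for NFI, TCAAGGTCA for ERR, TGACGTCA for CRE and TGANTCA for AP-1. The ERR motif contains the AGGTCA repeat unit of the PPAR/RXR motif, so those matches can overlap. A match is a description of the letters and not a site. Of the 2253 windows, 1782 (79.1%) held none of the 7, 426 held 1 kind and 45 held more.

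The PPAR/RXR motif was in 6.61% of the windows with H3K4me1 (95% exact binomial interval 5.62 to 7.72), 5.12% of those without it (3.80 to 6.73), 4.06% of recurrent regions at start sites and 3.86% of all 32851 RefSeq promoters of the same length in the GRCm38 table. The AP-1 motif was in 9.10% (7.94 to 10.4), 10.6% of the windows without H3K4me1, 5.04% at start sites and 7.81% of promoters. The ERR motif was in 1.91%, 2.03%, 1.21% and 0.423% in the same order. The C/EBP motif was in 3.46%, 4.26%, 4.99% and 5.92%, the EBF motif in 0.577%, 0.640%, 1.06% and 0.904%, the NFI motif in 1.15%, 0.640%, 0.496% and 0.907%, and the CRE motif in 0.222%, 0.213%, 0.728% and 1.79%. At the summit, the shares of the PPAR/RXR, AP-1, ERR and NFI motifs were higher in distal windows of both kinds than at start sites. Those of the other 3 were lower. The NFI share without H3K4me1 rested on 6 of 938 windows (interval 0.235 to 1.39), which covers the start-site share. Windows centred on the middle of the region held C/EBP in 6.35% with and 6.18% without H3K4me1, above the start-site share at the summit. For EBF they were 1.15%, above it, and 0.959%, below it. With the 5 long lists alone, the PPAR/RXR motif was in 6.55% of windows with and 4.68% without H3K4me1, and the AP-1 motif in 9.17% and 9.92%. The windows differed in base composition, which touches every one of these shares. Median GC content was 48.0% with H3K4me1, 45.2% without it and 57.0% at start sites, and windows held a mean of 2.93, 2.88 and 16.0 CpG dinucleotides.

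In the regions with H3K4me1, 4 of the 7 motifs were more frequent in the middle of the merged region than at the summit. With the 300 bp window centred on the middle, the PPAR/RXR motif was in 9.90% of the regions with H3K4me1, C/EBP in 6.35%, EBF in 1.15% and AP-1 in 11.5%. In the regions without H3K4me1 the middle held PPAR/RXR in 6.61% and C/EBP in 6.18%. The summit of the same peaks was lower for both motifs in both kinds of region. With H3K4me1, ERR (1.82%), NFI (1.02%) and CRE (0.133%) were below their shares at the summit. Without it, AP-1 was in 10.7% in the middle and 10.6% at the summit, and NFI in 1.17% and 0.640%. EBF was there in 0.959% and 0.640%, ERR in 1.92% and 2.03% and CRE in 0.320% and 0.213%. The AP-1 share was thus higher with than without H3K4me1 in the middle, and lower at the summit. Regions with a peak in all 8 lists held the ERR motif in 12 of 305 windows (3.93%) and those in 5 lists in 10 of 732 (1.37%), while the PPAR/RXR motif was in 5.25% and 6.69%. ERR differed most of the 7 motifs, but on 12 and 10 windows and without a test. Its share over all 2253 regions was 1.91%. C/EBP was in 3.61% and 3.28%, AP-1 in 9.18% and 8.61% and NFI in 1.31% and 1.78%. EBF was in 2 and 3 windows and CRE in 1 and 3.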

How the data were processed

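Chromatin immunoprecipitation with sequencing (ChIP-seq) had been done for H3K27ac, H3K4me1, H3K4me3 and H3K27me3 in brown fat of 8 mice, and 1 peak list per mark and mouse was used, 32 in all. The 8 input libraries entered only through the peak calling. The authors filtered reads with cutadapt, aligned them to GRCm38 with Bowtie2 and called peaks against input with MACS2. Versions and thresholds: not given in the sources used here. In the deposited lists each peak has a fold enrichment over local background, which is a ratio, and −log10 p and −log10 q values from the caller. The smallest deposited −log10 q was 1.30. Read depth behind a peak is unknown, and list length (3224 to 40604 peaks for H3K27ac) limits what each mouse can show. The study's wording allows that each library pooled the tissue of 2 mice. Mouse here means the mouse number in the labels, and p-values cover the spread between these 8 samples.

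Regions, start sites (141767 of the comprehensive GENCODE M21 annotation) and summits were joined with Python 3.11.15, numpy 2.4.6, pandas 2.3.3 and scipy 1.17.1. Fold values were compared between lists only as ranks within a list, expressed as percentiles. Marks of a mouse share its number, which labels give as the mouse, so regions with and without H3K4me1 were compared within mice (exact sign-flip test over 256 sign patterns) and the differences between groups of 4 mice by exact permutation (70 assignments, and 2520 for the interaction), with Benjamini-Hochberg adjustment. The numbers pair no mice of different conditions. The study states no test for these lists. Test code was tested on simulated data. Presence, gene lists and motifs were described without a test. Motifs were read from GRCm38 sequence, and promoters from the RefSeq table of that build. The members and lists were chosen with earlier results of these data known.

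Regions were named by rule: the 10 with the highest median fold percentile among those with a peak in all 8 lists, up to 3 for each presence pattern, those nearest to a listed gene, the genes nearest to the most regions, and those next to the 2500 bp limit. The widest regions and the Ucp1 window were chosen after their values were seen. Some regions that these rules name are not reported here. Alternatives were other numbers of lists, distances, start site sets, overlaps and q limits, mean instead of most significant peaks, leaving out mice, and other windows.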

Additional observations from a re-analysis of the deposited data

Results flagged for a closer look

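In 30 combinations of a measure and a group of 4 or 8 mice, the lowest or highest mouse was set against the range of its group by Dixon's 95% limit, which chance passes in about 1 of 20 groups. There were 3 cases. Among the cold mice, mouse 10 had H3K27ac at 59.8% of the regions, against 98.8% to 99.3% in the other 3. Among the NCD mice, mouse 1 had H3K27ac at 54.0%, against 96.3% to 98.8%. Mouse 10 had 14511 and mouse 1 had 16889 H3K27ac peaks. Among the cold mice, the log2 width difference between regions with and without H3K4me1 reached 0.90 in mouse 5, whereas the other 3 had 0.36 to 0.43. Mouse 5 had the longest H3K4me1 list, with 27568 peaks. The part of list length in these values was not tested.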

How the results depend on the processing

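The width and percentile differences between regions with and without H3K4me1 kept their direction in all 22 alternatives run for each, and were past the threshold in 20. With no replicate block, that is with the 8 and 8 medians unpaired, the values were the same (0.55 and 11.4) with adjusted p = 0.11 in an exact permutation test. In the 5 mice with over 28000 H3K27ac peaks they were 0.64 and 9.65 with exact adjusted p = 0.0625, the smallest that 5 mice allow. The other alternatives gave 0.33 to 0.63 and 4.30 to 12.4 points, and leaving out 1 mouse gave 0.50 to 0.59 and 7.75 to 11.7 points. The percentile difference was 4.30 points with −log10 q of at least 5. It was 5.46 points in regions found in all 8 lists and 6.52 points with mean peaks. The diet differences kept their direction in all 20 alternatives. The temperature differences and the interactions, none of which passed the test, changed sign. The interaction on width, 0.00292, was −0.0422 with 4 or more H3K27ac lists, −0.0697 with 6 or more, −0.0235 beyond 5000 bp, −0.0379 with H3K4me1 in 1 list, −0.0483 with mean peaks, −0.20 in regions found in all 8 lists and −0.0111 with GENCODE basic start sites. Leaving out 1 mouse gave −0.28 to 0.40 for it, −14.1 to 2.67 for the interaction on the percentile and −0.141 to 0.0521 for temperature on width. With −log10 q of at least 5, temperature on width was 0.18 and on the percentile 2.65. With H3K4me1 counted at the summit, temperature on the percentile was 0.0495. The cause was not tested.

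The number of regions was 416 with −log10 q of at least 5 and 1311 to 2251 without 1 mouse. It was 2517 with GENCODE basic start sites and 1576 with H3K4me1 counted at the summit, both added after the data were seen, and 1521 to 2890 in the others. With −log10 q of at least 5, 16 of 416 regions (3.85%, against 1.82% of all recurrent regions) had a peak in all cold and at most 1 warm mouse, 6 (1.44%, against 1.41%) in all NCD and at most 1 HFD mouse and 0 in the reverse of either. With a difference of 2 or more mice these were 460 (20.4%, against 12.6% of all recurrent regions), 346 (15.4%, against 20.6%) and 5. Leaving out 1 mouse was not run for presence, as it leaves 3 mice in a group. In windows of 500 bp, the shares were 13.1% for PPAR/RXR, 7.68% for C/EBP, 1.20% for EBF, 1.82% for NFI, 3.37% for ERR and 16.3% for AP-1. At the middle of the region they were 9.90% for PPAR/RXR, 6.35% for C/EBP, 1.15% for EBF and 11.5% for AP-1. A window of 500 bp holds more positions than one of 300 bp. Short lists limit what mice 1, 7 and 10 can show.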
